A study of Rattus norvegicus with 16 samples.

Results

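Crh and Nr3c1 stand at both ends of the hormonal stress axis, and their RNA levels are described here in hypothalamus of female Wistar rats aged 21 days. The 2 genes were taken as the rows with the Ensembl rat IDs ENSRNOG00000012703 (Crh) and ENSRNOG00000014096 (Nr3c1), out of 32883 gene IDs in the count files. The names come with the rule that chose the rows, because the files hold IDs alone and the rat gene table at hand (47357 genes) pairs 0 of them with a symbol and so names neither otherwise. Crh encodes corticotropin-releasing hormone, a neuropeptide. Neurons of the paraventricular nucleus release it to drive corticotropin secretion by the pituitary, and smaller groups of Crh neurons lie elsewhere in the hypothalamus and preoptic area. Nr3c1 encodes the glucocorticoid receptor, a nuclear receptor found in many neurons and glia, which binds the adrenal steroid corticosterone in rats and mediates its negative feedback on Crh.

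RNA was measured in tissue that the labels call MBH-PoA, with 4 libraries in each of the groups F1 EDC, F1 control, F3 EDC and F3 control. EDC stands for a mixture of endocrine disrupting chemicals, which are substances that interfere with hormone signalling. Mixture or vehicle reached the rats along the maternal line, in food that dams ate starting 2 weeks ahead of gestation and until lactation ended. F1 rats were exposed in utero, and F3 rats descended from exposed or vehicle-fed ancestors. The titles of the 8 EDC samples read Control, so the groups follow the source descriptions and treatment fields. Neither litters nor whether the paraventricular nucleus lay inside the dissected block is given in the sources used here. The p-values set group differences against the spread between libraries and treat libraries as independent, which could not be checked. Without symbols, the tissue label could not be checked against marker genes.

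Gene counts per library ran from 5655354 to 35981898, and reads mapping to several places made up 15.7% to 51.6% of a library. The F1 EDC libraries stood apart from the rest. In edgeR's quasi-likelihood test with Benjamini-Hochberg adjustment, an adjusted p under 0.05 was reached by 52.4% of the 15366 tested genes in F1 EDC against F1 control and by 2.94% in F3 EDC against F3 control. Both Crh and Nr3c1 were among the tested genes. Levels below are CPM, read counts scaled to a common library total with TMM factors, which correct for differences in library composition. CPM is not divided by transcript length, so the levels of the 2 genes were not compared with each other.

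Nr3c1 was lower in F1 EDC than in the other 3 groups, of which F3 control was not tested against F1 EDC. In F1 EDC replicates 1 to 4 it was at 47.5, 51.3, 49.2 and 44.4 CPM, against 122.5, 108, 112 and 116 CPM in F1 control replicates 1 to 4. The highest F1 EDC value lay far below the lowest F1 control value. The means were 48.1 ± 2.91 CPM for F1 EDC and 114.6 ± 6.13 CPM for F1 control (n = 4 each, ± SD). The log2 fold change was -1.25 with an SE of 0.07 (edgeR adjusted p = 2.25e-12), a 2.39-fold fall with a 95% interval of 2.15 to 2.65. The groups of a gene did not overlap in 44.0% of all tested genes, so neither the call nor the separation sets Nr3c1 apart. Its absolute log2 fold change exceeded that of most genes, at the percentile 85.8 of those tested, where the median was 0.44. By p-value it ranked 113 among the 15366, a rank that depends on spread as well as on the size of the fall. The biological coefficient of variation, the spread fitted by edgeR, was 8.28% for Nr3c1 against a median of 14.5%. In bulk tissue, fewer cells of a type and less RNA per cell cannot be told apart.

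In F3 no such fall was seen. F3 EDC replicates 1 to 4 had 98.3, 105.0, 105.5 and 98.3 CPM of Nr3c1, against 102.9, 92.0, 94.0 and 88.7 CPM in F3 control replicates 1 to 4. The groups overlapped, because F3 control replicate 1 lay above 2 of the F3 EDC libraries. The means were 101.8 ± 4.03 CPM in F3 EDC and 94.4 ± 6.09 CPM in F3 control (SD, n = 4 each). With a log2 fold change of 0.11 and an SE of 0.07, Nr3c1 did not pass (edgeR adjusted p = 0.477), and the 95% interval of the fold ran from 0.974 to 1.19. Over all tested genes, 12.2% did not overlap in F3. The EDC effects of the generations were compared directly. The log2 fold change of Nr3c1 in F3 exceeded that in F1 by 1.36 (SE 0.10; edgeR adjusted p = 4.10e-10), a contrast in which 43.6% of tested genes passed.

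**Figure D1:**
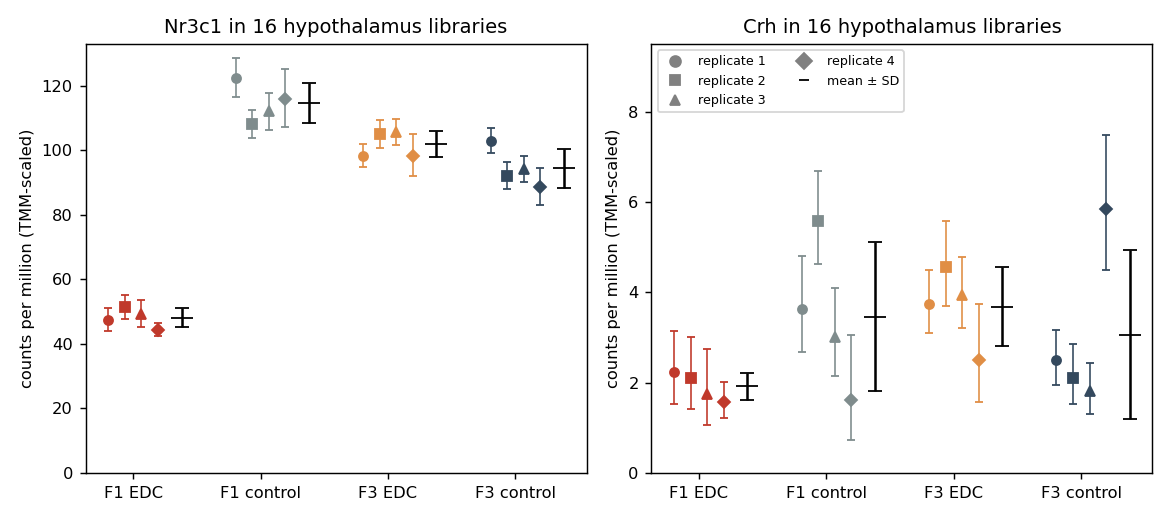
CPM (TMM-scaled) of Nr3c1 (left) and Crh (right) in each library of the 4 groups. Points are libraries, with 95% Poisson intervals that cover counting error only, and black bars give the mean ± SD of 4 libraries. Nr3c1 in F1 EDC lies between 44.4 and 51.3 CPM, below all 12 other libraries, whereas Crh in F1 EDC overlaps F1 control. No share over all genes was taken for a separation from all 12. In F1 EDC against F1 control alone, 44.0% of tested genes did not overlap.

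Among controls, Nr3c1 was modestly lower in F3 than in F1. The log2 fold change of F3 control against F1 control was -0.28 (SE 0.07; edgeR adjusted p = 0.00448), the highest F3 control value being below the lowest F1 control value. In this contrast 27.5% of tested genes passed and 25.2% did not overlap. Between the exposed groups, Nr3c1 was 2.12-fold higher in F3 EDC than in F1 EDC (log2 fold change 1.08, SE 0.07; edgeR adjusted p = 1.79e-11), where 53.5% of genes passed and 51.5% did not overlap. The lane number in the file names differs between F1 and F3, so in these contrasts the generation cannot be told apart from the lane. From high to low, the group means thus ran F1 control, F3 EDC, F3 control and F1 EDC. F1 control and F3 EDC were not tested against each other, and no share over all genes was taken for that pair. The lowest F1 control value was 108 CPM and the highest F3 EDC value 105.5 CPM. Without that share, this gap is not read as a trait of Nr3c1. F3 EDC and F3 control did not differ beyond their spread.

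Nr3c1 is transcribed from several alternative first exons that share the same coding sequence, and its promoters lie in a CpG-rich region. Methylation and Egr1 (NGFI-A) binding at such a promoter have been studied with maternal care in rat hippocampus. The RefSeq promoter table for the build GRCr8 holds 2 start sites of Nr3c1 and none of Crh. The 250 bases before each start are shown because the counts, made on the build rn6, sum reads over the whole gene and so do not separate these starts. They lie on the minus strand at chr18:31614220-31614469 and chr18:31613440-31613689 (GRCr8), and capitals mark each CpG, the dinucleotide at which DNA is methylated.
Nr3c1 window 1: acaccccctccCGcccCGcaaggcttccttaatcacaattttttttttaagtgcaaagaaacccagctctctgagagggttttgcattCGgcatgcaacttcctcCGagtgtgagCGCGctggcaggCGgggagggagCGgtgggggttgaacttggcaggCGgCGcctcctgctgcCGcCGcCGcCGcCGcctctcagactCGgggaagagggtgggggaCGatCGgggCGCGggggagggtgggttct
Nr3c1 window 2: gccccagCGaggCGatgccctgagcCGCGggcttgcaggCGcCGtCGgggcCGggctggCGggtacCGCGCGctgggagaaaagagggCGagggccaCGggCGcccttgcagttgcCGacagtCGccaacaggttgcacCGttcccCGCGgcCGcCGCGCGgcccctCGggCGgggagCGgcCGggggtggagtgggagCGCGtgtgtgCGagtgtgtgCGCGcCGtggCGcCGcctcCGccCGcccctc
Window 1 held 20 CpG and window 2 held 38, where the median of all 33469 windows of this length was 5. At least as many CpG as in window 1 were found in 16.7% of all windows, and as many as in window 2 in 1.69%. Searched on both strands, the GC box GGGCGG was in both Nr3c1 windows and in 30.5% of all windows. The Egr1 motif GCGGGGGCG was in neither, and in 2.45% of all windows. Only this exact motif was searched for Egr1, and whether either window is the promoter studied in hippocampus was not checked. The glucocorticoid receptor half-site AGAACA was in neither, and in 17.5% of all windows. GCGGGGGCG does not contain GGGCGG on either strand, though sites of both motifs can overlap. No methylation or binding was measured here.

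Crh was sparsely counted, with 9 to 119 reads per library and 910 reads in all, whereas Nr3c1 had 533 to 3097 reads per library. On the opposite strand there were 8 reads at Crh and 0 at Nr3c1 over the 16 libraries. In F1 EDC replicates 1 to 4 Crh was at 2.23, 2.11, 1.75 and 1.58 CPM, against 3.63, 5.58, 3.01 and 1.61 CPM in F1 control replicates 1 to 4. F1 control replicate 4 lay inside the F1 EDC range, and with 9 Crh reads its own 95% Poisson interval ran from 0.734 to 3.05 CPM. The other F1 control libraries were above all F1 EDC libraries.

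By the test across all genes, Crh fell in F1 EDC, close to the threshold. In this contrast 52.4% of tested genes passed, so the call does not set Crh apart. By p-value Crh ranked 7907, where 8057 genes were called. Its absolute log2 fold change was at the percentile 76.7 of tested genes. The means were 1.92 ± 0.301 CPM for F1 EDC and 3.46 ± 1.65 CPM for F1 control (n = 4 each, ± SD). The log2 fold change was -0.91 with an SE of 0.37 (edgeR adjusted p = 0.0451), a 1.88-fold fall with a 95% interval of 1.10 to 3.22. The call rested on single libraries and on the processing: it held in 6 of 16 fits that left out 1 library, and the log2 fold change was -0.57 without F1 control replicate 2 (edgeR adjusted p = 0.242). It was lost without F1 control replicates 1 or 2, any F1 EDC replicate, F3 control replicate 1 or F3 EDC replicates 1, 2 or 3. Over the 11 other alternatives the adjusted p ran from 0.0416 to 0.216, and 4 of them kept the call.

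In F3, Crh was at 3.75, 4.56, 3.94 and 2.49 CPM in EDC replicates 1 to 4, against 2.50, 2.11, 1.81 and 5.84 CPM in control replicates 1 to 4. F3 control replicate 4 held the highest Crh value of the 16 libraries, and the other 3 controls lay below 3 of the 4 F3 EDC libraries. The means were 3.68 ± 0.868 CPM in F3 EDC and 3.07 ± 1.87 CPM in F3 control (SD, n = 4 each). With a log2 fold change of 0.32 and an SE of 0.36, Crh did not pass (edgeR adjusted p = 0.708), and the 95% interval of the fold, 0.748 to 2.09, holds either direction. Without F3 control replicate 4 the log2 fold change was 0.79 (edgeR adjusted p = 0.201), and without F3 control replicate 3 it was 0.13 (edgeR adjusted p = 0.911). It was 0.70 with limma voom, which weights libraries by quality (limma adjusted p = 0.0806).

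The difference of the EDC effects on Crh, F3 minus F1, was 1.24 on the log2 scale (SE 0.52; edgeR adjusted p = 0.0576), and thus a fall in F1 and no call in F3 did not amount to a difference between generations past the threshold. It passed without F3 control replicate 4, at 1.71 (edgeR adjusted p = 0.00537), without F1 control replicate 4, at 1.43 (edgeR adjusted p = 0.0227), and without F3 EDC replicate 4, at 1.37 (edgeR adjusted p = 0.0423). Crh in F3 EDC was 1.95-fold higher than in F1 EDC, without overlap (log2 fold change 0.97, SE 0.37; edgeR adjusted p = 0.0309). In this contrast 53.5% of tested genes passed and 51.5% did not overlap, so neither the call nor the separation sets Crh apart. Here too the generation cannot be told apart from the lane. The Crh call was lost without F1 EDC replicates 3 or 4 and without F3 EDC replicates 1, 2 or 3. The edgeR adjusted p then ran up to 0.0869. F3 control against F1 control gave -0.27 on the log2 scale with an SE of 0.36 (edgeR adjusted p = 0.635), and the direction turned without F1 control replicate 2, at 0.091. From high to low, the group means of Crh ran F3 EDC, F1 control, F3 control and F1 EDC, and each neighbouring pair overlapped.

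**Figure D2:**
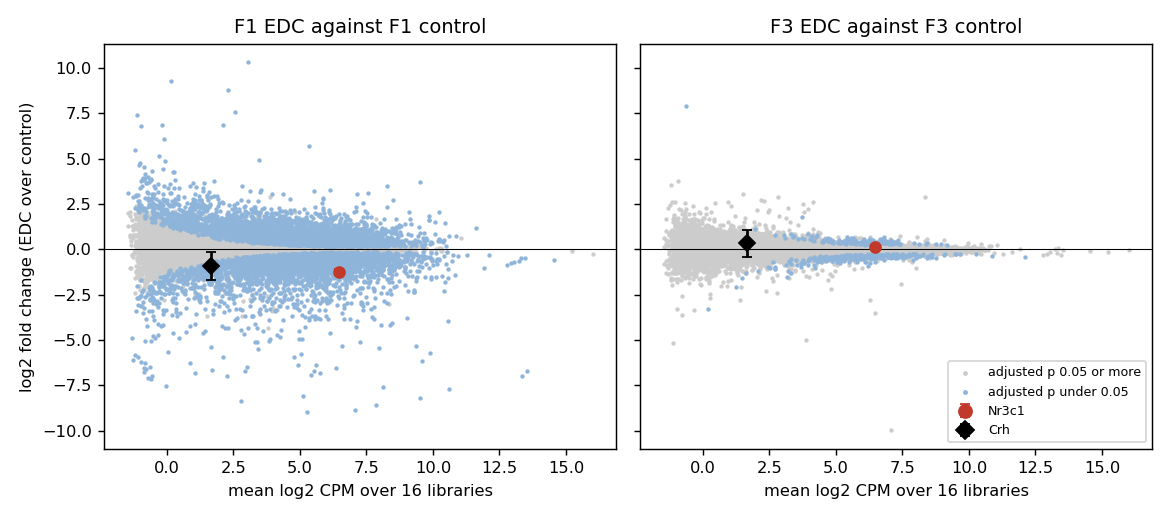
Log2 fold change of EDC over control against mean log2 CPM for the 15366 tested genes, in F1 (left) and F3 (right), with Nr3c1 and Crh drawn with 95% intervals. Blue points are genes with an adjusted p under 0.05. In F1, Nr3c1 at -1.25 and Crh at -0.91 lie among many called genes, and in F3 they lie at 0.11 and 0.32.

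The 2 genes differed in how much they varied within a group. The coefficient of variation of Nr3c1 was 6.05% for F1 EDC, 5.35% for F1 control, 3.96% in F3 EDC and 6.45% in F3 control. That of Crh was 15.7% in F1 EDC, 47.8% in F1 control, 23.55% in F3 EDC and 61.1% in F3 control. Poisson counting alone would give Crh 18.5% in F1 EDC, 14.8% in F1 control, 11.85% in F3 EDC and 14.8% in F3 control. The Crh value lay below the counting value in F1 EDC and above it in F1 control, F3 EDC and F3 control. Differences between rats can add to counting error, and the difference in spread between groups was not tested. The biological coefficient of variation fitted by edgeR was 33.55% for Crh and 8.28% for Nr3c1, against a median of 14.5% over all tested genes.

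The share of multimapping reads differed between libraries and is set beside both genes. Its mean was 46.2% ± 4.11 for F1 EDC and 35.3% ± 10.6 for F1 control, and 24.7% ± 13.6 for F3 EDC and 30.85% ± 11.1 for F3 control (SD, n = 4 each). F1 control replicate 2, with the lowest share of its group at 19.9%, had the highest Crh value of that group. F3 EDC replicate 4, with the highest share of its group at 44.4%, had its lowest Crh value. The other groups went differently. F3 control replicate 3, with the lowest share at 16.5%, had the lowest Crh value of its group. F1 EDC replicate 1, with the highest share at 51.6%, had the highest Crh value of its group. Of the F1 controls, replicate 3 at 43.2% lay inside the F1 EDC range of 41.8% to 51.6% and replicate 4 at 41.6% just below it. They had 3.01 and 1.61 CPM of Crh and 112 and 116 CPM of Nr3c1. With the share as a covariate, the log2 fold change of Crh was -0.64 in F1 (edgeR adjusted p = 0.216) and 0.51 in F3 EDC against F1 EDC (edgeR adjusted p = 0.431). That of Nr3c1 in F1 was -1.27 in the same fit (edgeR adjusted p = 1.55e-11).

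**Figure D3:**
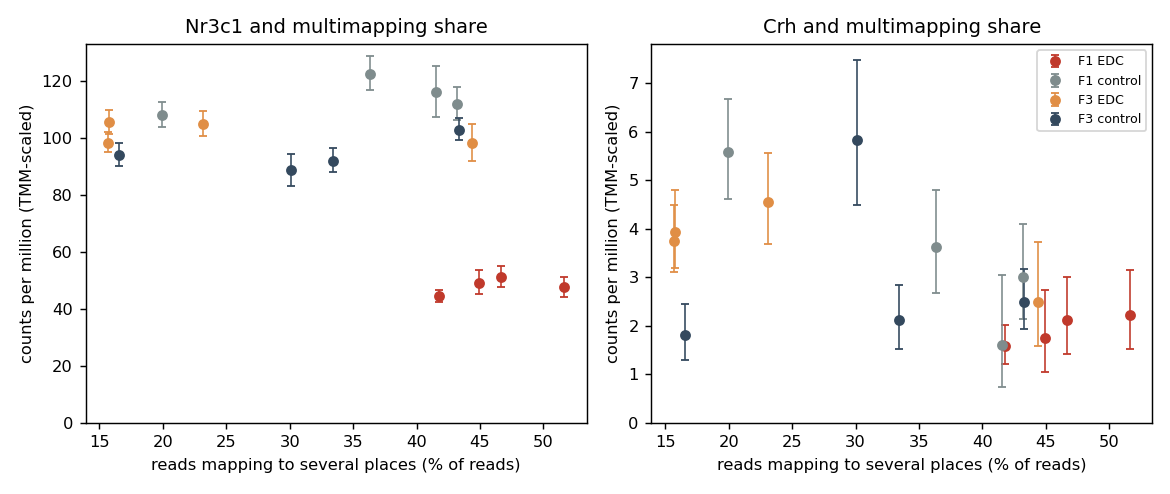
CPM (TMM-scaled) of Nr3c1 (left) and Crh (right) against the percentage of multimapping reads for the 16 libraries coloured by group, with 95% Poisson intervals. F1 EDC libraries span 41.8% to 51.6%, and no library of another group lies above 44.4%. Crh lies at 1.58 to 2.23 CPM in F1 EDC, against 1.61 to 3.01 CPM in the other libraries over 40%.

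The ratio of Crh to Nr3c1 counts within a library does not depend on how libraries are scaled. Its log2 value was -4.64 ± 0.189 for F1 EDC and -5.16 ± 0.749 for F1 control, and -4.81 ± 0.323 in F3 EDC and -5.10 ± 0.801 in F3 control (SD, n = 4 each; 0.5 added to each count). The F1 EDC libraries ran from -4.80 to -4.39, inside the F1 control range of -6.10 to -4.27. The groups differed by 0.52 in F1 (two-sided exact permutation p = 0.257, adjusted 0.648 over 4 comparisons) and by 0.29 in F3 (two-sided exact permutation p = 0.486, adjusted 0.648), where the smallest p that this design allows is 0.0286. With single libraries left out, the difference ran from 0.21 (without F1 control replicate 4) to 0.82 (without F1 control replicate 2) in F1, and from 0.090 (without F3 control replicate 3) to 0.68 (without F3 control replicate 4) in F3. The falls of Crh and Nr3c1 in F1 EDC were therefore not shown to differ in size. The other 2 comparisons did not pass either, at 0.06 for F3 control against F1 control (two-sided exact permutation p = 0.914, adjusted 0.914) and -0.17 for F3 EDC against F1 EDC (two-sided exact permutation p = 0.486, adjusted 0.648).

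**Figure D4:**
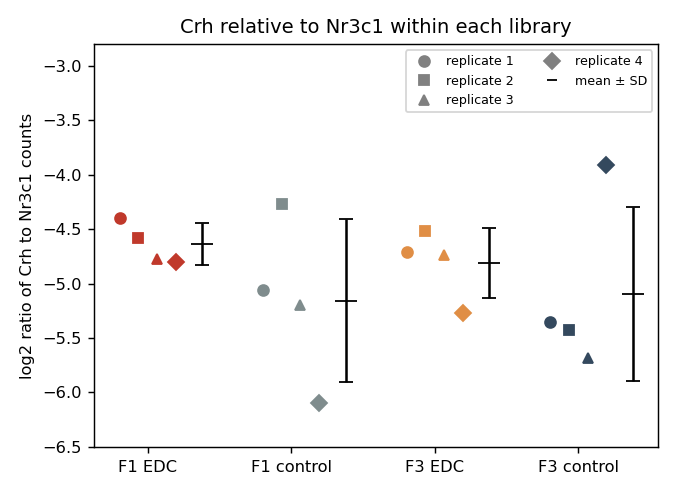
Log2 ratio of Crh to Nr3c1 counts in each library of the 4 groups, with the mean ± SD of 4 libraries in black. The groups overlap, and F3 control replicate 4, at -3.91, has the highest ratio.

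Within groups, no relation between Crh and Nr3c1 passed a test across libraries. The deviations of log2 CPM from the group means had a Pearson r of -0.149 (permutation p = 0.634) and a Spearman rho of 0 (permutation p = 1) over 16 libraries, with 100000 permutations within groups. This was the only such relation computed. F3 control replicate 4 and F1 control replicate 4 had the Crh deviations farthest from the median deviation. Without them r was 0.0983, with the group means not recomputed.

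The genes whose profile over the 16 libraries was most like that of each member were found from the root mean square difference of centred log2 CPM, among 14172 genes. Nearest to Nr3c1 were ENSRNOG00000021298, at 0.083, and ENSRNOG00000026745, at 0.089, where the median gene was at 0.59. The mean of ENSRNOG00000021298 was 51.4 ± 2.53 CPM for F1 EDC and 133.5 ± 9.72 CPM for F1 control, and 116.8 ± 3.41 CPM in F3 EDC and 111.5 ± 9.92 CPM in F3 control (SD, n = 4 each). Its groups had the same order as those of Nr3c1, which its choice by likeness to Nr3c1 favours. Nearest to Crh were ENSRNOG00000007939, at 0.31, and ENSRNOG00000009369, at 0.35, where the median gene was at 0.67. The mean of ENSRNOG00000007939 was 5.41 ± 0.756 CPM for F1 EDC and 8.88 ± 3.30 CPM for F1 control, and 7.87 ± 1.35 CPM in F3 EDC and 7.28 ± 2.75 CPM in F3 control (SD, n = 4 each). Its highest mean was in F1 control, whereas that of Crh was in F3 EDC. Crh and Nr3c1 themselves were 0.54 apart. Any profile over all 16 libraries includes the wide differences of F1 EDC from F1 control and from F3 EDC. The IDs carry no name in the files.

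**Figure D5:**
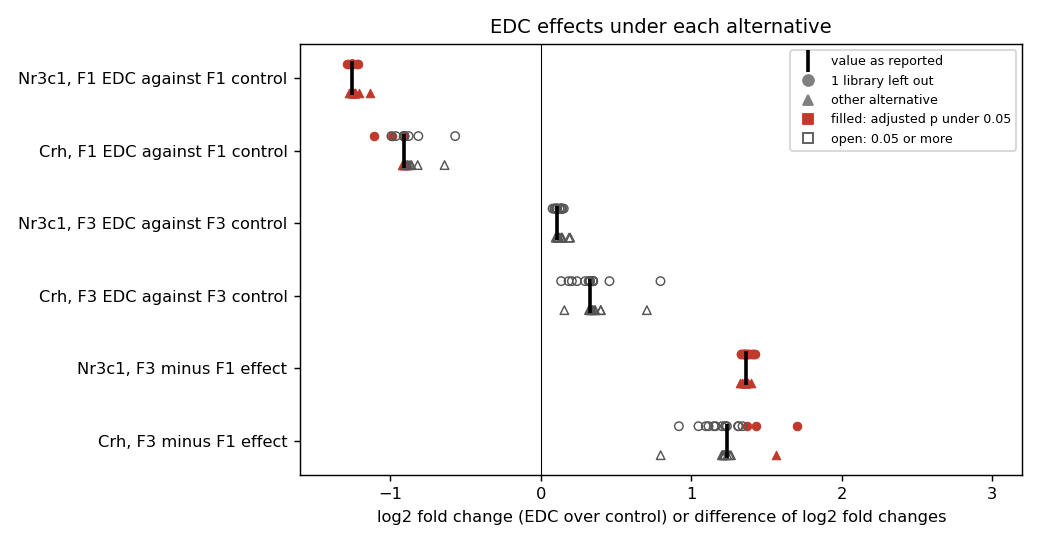
Log2 fold change of EDC over control for Nr3c1 and Crh in F1 and F3, and the difference of these effects, as reported (black bar), with each library left out in turn (circles) and under the other alternatives (triangles). Filled points have an adjusted p under 0.05. All points of Nr3c1 in F1 are filled, between -1.29 and -1.13, whereas those of Crh in F1 spread from -1.11 to -0.57 and most are open.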

How the data were processed

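RNA of 16 hypothalamus samples was sequenced with single reads of 100 cycles, per the labels' protocols. Tools named in the submitters' processing notes are Trimmomatic 0.33 and TopHat2 2.1, with the build rn6. The deposited files hold raw read counts per Ensembl gene in the layout of STAR (version: not given in the sources used here). The fourth column was used, which held at least 52.5 times the gene counts of the other strand. Summary lines stayed out of tests: no-feature reads took 17.7% to 24.4% and unmapped reads 3.63% to 9.45% of a library. No replicates held identical counts.

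Counts were filtered with filterByExpr (count minimum 10), scaled with TMM and fitted with edgeR 4.0.16 (R 4.3.3) by the robust quasi-likelihood F test on 4 group means over all 16 libraries. P-values were adjusted over all 15366 genes (threshold 0.05, two-sided). The procedure was tested on simulated data, in which far fewer genes changed than were called in F1 EDC against F1 control. The simulation thus does not cover a contrast with that many calls. Standard errors and 95% intervals were derived from the F statistics. Permutation tests used SciPy 1.17.1. The planned lists of stress axis genes and cell type markers were not used, since no ID could be paired with a symbol. The IDs named are the members and, for each, the 2 tested genes nearest in profile with a mean log2 CPM (prior count 2) of at least 0. The members, lists and alternatives were chosen with earlier results of these data known. Alternatives included RLE or upper quartile scaling, library size alone, DESeq2 1.42.0, limma 3.58.1 voom with quality weights, other filters, unstranded counts, the groups compared alone, a replicate block, a multimapping covariate, no libraries over 40% multimapping, and each library left out in turn.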

Additional observations from a re-analysis of the deposited data

Results flagged for a closer look

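The EDC effect on Nr3c1 differed between the generations: the log2 fold change in F3 exceeded that in F1 by 1.36 in edgeR's interaction contrast (adjusted p = 4.10e-10), a test that 43.6% of all tested genes passed. The F3 EDC libraries did not show the fall seen in each of the 4 F1 EDC libraries.

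No library stood far enough from its group of 4 in Nr3c1, Crh or their ratio to pass Dixon's 95% critical value for 4 samples, over 12 groups of values. Crh in F3 control replicate 4 came closest, at 5.84 CPM, where the gap to the next library was 0.828 of the range of the group, just under that value.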

How the results depend on the processing

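For Nr3c1 no alternative changed a call or a direction in any of the 5 comparisons. In F1 its log2 fold change ran from -1.29 to -1.21 with single libraries left out and from -1.27 to -1.13 under the other alternatives. The value of -1.13 came from library size alone, which put the median log2 fold change of all genes at 0.11. For Crh in F1 EDC against F1 control, the call was lost with RLE factors (-0.89), upper quartile factors (-0.87), library size alone (-0.82), the 2 groups fitted alone (-0.90), voom (-0.86), the multimapping covariate (-0.64) and the replicate block (-0.88), and without single libraries the value ran from -1.11 to -0.57. The difference of the EDC effects on Crh passed with voom (1.57), was 0.80 with the multimapping covariate and ran from 0.92 to 1.71 without single libraries. Crh in F3 EDC against F1 EDC lost its call with library size alone (0.85) and with the multimapping covariate (0.51), and ran from 0.85 to 1.10 without single libraries. Crh in F3 control against F1 control ran from -0.74 to 0.091 without single libraries, and was 0.091 without F1 control replicate 2. The log2 ratio of Crh to Nr3c1 counts in the same comparison ran from -0.33 to 0.36, and was -0.33 without F3 control replicate 4 and -0.25 without F1 control replicate 4. The causes were not tested.

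The number of genes called in F3 EDC against F3 control, 452, was 166 with library size alone, 775 with DESeq2 and 1508 with voom. It ran from 34 (without F3 EDC replicate 3) to 553 without single libraries, and was 199 and 87 without F3 control replicates 1 and 2, and 240, 258 and 270 without F3 EDC replicates 1, 2 and 4. Without the libraries over 40% multimapping, edgeR called 0 genes with 3 libraries per F3 group, while 2240 had an unadjusted p under 0.05. Nr3c1 was then at 0.19 and Crh at 0.40. That alternative left 0 F1 EDC libraries and gave no value for F1 EDC against F1 control. DESeq2 gave no adjusted p for Crh in F3. Same-numbered EDC and control libraries had correlations of -0.108 to 0.0884, so no pairing by replicate number was seen. With 4 libraries per group, this cannot exclude one. The replicate block changed no call other than that of Crh in F1. Depth limits Crh, at 9 to 119 reads per library; leaving out 1 library of a ratio comparison allows no permutation p below 0.0571.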
